A study of Mus musculus with 4 samples.

Results

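Long stretches of closely spaced H3K27ac peaks, of the kind called super-enhancers, were described in 2 peak lists from mouse bone marrow. H3K27ac, the acetylation of lysine 27 on histone H3, marks promoters and enhancers in use. In each list separately, peaks with gaps of 12000 bp or less were stitched, and a stitched region was kept as a domain where that list's own peaks covered at least 10000 bp of it. The BN1-labelled list held 84 domains among 11380 stitched regions of any size, and the control-labelled list held 337 among 14094, which makes 421 of 25474 in all. No ranking of read signal entered this rule, so the domains were selected on the bp their own list covers and are super-enhancer-like by that length only. Read depth is unknown, since a peak list gives no counts of reads.

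BN1 stands for BRD9-NUTM1, a fusion protein of leukaemia. Its BRD9 part comes from a bromodomain protein of the non-canonical BAF remodeller, and its NUTM1 part from a testis protein that recruits the acetyltransferase p300. The BN1-labelled list came from CD45.2+ bone marrow cells of C57BL/6 mice with the genotype cKit(+) BRD9-NUTM1, and the control-labelled list from the same source with the genotype cKit(+). The age and number of the mice, and how the fusion was introduced, are not stated in the labels. The chromatin was immunoprecipitated by fanChIP, a fractionation-assisted native method, with 1 library per group. Differences below therefore have no replicate check, and intervals on shares are exact (Clopper-Pearson) 95% binomial intervals for counting error only. An input library for each group and the MLL-AF9 and MLL-ENL leukaemias that the series names were not analysed here.

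The labels are in conflict over which list is which. The peaks inside the list assigned to the control sample carry names that begin with BRNU, and those inside the list assigned to the BN1 sample carry names that begin with BM. The labels do not explain these abbreviations, and the extraction text of all 4 samples, controls included, speaks of cKit-positive BN1 cells. Groups follow the sample titles throughout, and every direction holds for those labels only.

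Super-enhancers are clusters of enhancers that bind many transcription factors and coactivators at once, and they often lie in or beside genes that define a cell's identity. In blood cells such clusters typically sit near genes for lineage transcription factors, surface receptors and microRNAs. BET and other bromodomain proteins read their acetylated histones, and p300 and CBP write the mark.

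Short sequences from the domains are given first, since these microRNAs and promoters recur below. Of 1005 microRNA hairpins in RefSeq GRCm38.p6 (the assembly also called mm10), 15 lay in a domain span of the BN1-labelled list (1.49%) and 26 in one of the control-labelled list (2.59%), in 6 and 19 domains. In the 7 mature microRNAs below, each from a hairpin that a peak of its domain overlapped, capitals mark the seed, bases 2 to 8, which pairs with target messengers. No seed is shared among them.
miR-142a-5p: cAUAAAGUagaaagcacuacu
miR-142a-3p: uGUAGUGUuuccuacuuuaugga
miR-23a-3p: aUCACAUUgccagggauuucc
miR-27a-3p: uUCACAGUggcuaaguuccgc
miR-24-3p: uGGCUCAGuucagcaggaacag
miR-21a-5p: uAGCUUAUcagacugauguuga
miR-26b-5p: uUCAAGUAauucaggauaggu

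The Mir142 hairpin (chr11:87756864-87756927, plus strand), the source of the blood-restricted miR-142, lay in the Rnf43 domain of the BN1-labelled list. That domain covered 18112 bp, with 1 peak of 10841 bp, and the control-labelled list covered 9830 bp of the same span, under the domain minimum. Mir23a, Mir27a and Mir24-2, a cluster at chr8:84208518-84208921 on the plus strand, lay in the Zswim4 domain of both lists. Mir21a (chr11:86584067-86584158, minus strand), which is raised in many tumours, lay in the Vmp1 domain of the control-labelled list, where the BN1-labelled list covered 9084 bp, against 21820 bp in the control-labelled list. Mir26b (chr1:74394310-74394394, plus strand) lay in the Ctdsp1 domain of the control-labelled list, where the BN1-labelled list covered 7553 bp, against 11199 bp in the control-labelled list. None of these domains was therefore free of the other list.

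The 200 bases before the RefSeq start are printed for Cxcr4 and Spib, which a domain reached in the BN1-labelled list only, for Mcl1, reached in both, and for Cd68, reached in the control-labelled list only. They read in the direction of the gene. Capitals mark matches, on either strand, to the letters searched.
Cxcr4: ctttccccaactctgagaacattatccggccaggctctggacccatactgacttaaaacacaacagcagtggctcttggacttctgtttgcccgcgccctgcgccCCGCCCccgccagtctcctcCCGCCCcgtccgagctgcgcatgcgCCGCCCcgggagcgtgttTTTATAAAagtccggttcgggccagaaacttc
Spib: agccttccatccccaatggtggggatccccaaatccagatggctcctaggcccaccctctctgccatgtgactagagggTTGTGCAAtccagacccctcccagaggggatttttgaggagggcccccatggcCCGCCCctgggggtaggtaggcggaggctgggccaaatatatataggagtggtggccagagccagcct
Mcl1: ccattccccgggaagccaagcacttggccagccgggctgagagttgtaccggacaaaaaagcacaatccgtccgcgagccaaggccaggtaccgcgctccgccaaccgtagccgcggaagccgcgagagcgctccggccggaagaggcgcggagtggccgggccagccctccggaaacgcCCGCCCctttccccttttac
Cd68: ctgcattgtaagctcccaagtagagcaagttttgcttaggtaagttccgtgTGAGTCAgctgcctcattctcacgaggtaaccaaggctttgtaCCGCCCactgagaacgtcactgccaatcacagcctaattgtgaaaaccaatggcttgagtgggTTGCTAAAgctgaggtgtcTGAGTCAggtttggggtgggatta

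Cxcr4 encodes the chemokine receptor that holds blood cells in the marrow; its stretch (chr1:128592300-128592499, minus strand) holds 3 GC boxes (GGGCGG, here as its reverse complement) and TATAAA on each strand in overlapping matches. Spib encodes an ETS transcription factor of B cells and plasmacytoid dendritic cells; its stretch (chr7:44532072-44532271, minus strand) holds a C/EBP match (TTGCNNAA on its reverse strand) and a GC box. Mcl1 encodes an anti-apoptotic relative of BCL2, and its stretch (chr3:95658521-95658720, plus strand) holds 1 GC box. The start listed for Mcl1 lies inside its RefSeq gene body (chr3:95656944-95663179), so this stretch does too. Cd68 encodes a lysosomal glycoprotein of macrophages, and its stretch (chr11:69666171-69666370, minus strand) holds 2 AP-1 matches (TGANTCA), a GC box and a C/EBP match. A match is a run of letters only, and no binding was measured.

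Defining markers of blood cell types were checked in both lists before the domains, measured as bp covered from 10 kb before to 10 kb after each of 6 genes. The B lineage markers summed to 28277 bp in the BN1-labelled list (5 of 6 above 0) and 1964 bp in the control-labelled list (2 of 6). The neutrophil markers summed to 34365 bp in the BN1-labelled list (6 of 6) and 1492 bp in the control-labelled list (2 of 6). The monocyte and macrophage markers summed to 3080 bp in the BN1-labelled list (3 of 6) and 30964 bp in the control-labelled list (6 of 6). Of these markers S100a8, S100a9, Cd14 and Ctss were themselves reached by a domain. The part of cell composition in the differences between domains below was not tested. In a mixed sample fewer cells of a type cannot be told apart from less acetylation per cell.

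The remaining marker lists had smaller sums. T and NK cell markers summed to 7857 bp in the BN1-labelled list and 2954 bp in the control-labelled list, erythroid markers to 7000 and 4530 bp, and markers of stroma and endothelium to 3447 and 4603 bp, in that order of lists. The windows of Cd3g and Cd3d overlap, so the T and NK sums count some bp more than once. Of mast cell and basophil markers Hdc alone was above 0, with 11798 bp in the BN1-labelled list. Progenitor markers summed to 3987 bp in the BN1-labelled list, all at Flt3, and 5679 bp in the control-labelled list. Although the labels name cKit-positive cells, Kit itself, Mpo and Gata2 had 0 bp within 10 kb in both lists.

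The 2 sets of domains differed in number more than the lists differed in length. Domains made up 0.738% (0.589 to 0.913) of stitched regions in the BN1-labelled list and 2.39% (2.15 to 2.66) in the control-labelled list. They took 6.08% of the 19.1 Mb that the 19148 peaks labelled BN1 covered, and 16.3% of the 31.0 Mb that the 28343 peaks labelled control covered. The control-labelled list was thus 1.62 times as long as the other but held 4.01 times as many domains. With the control list limited to its 19148 peaks of highest −log10 q, 84 domains labelled BN1 stood against 243 labelled control. With the control minimum raised in proportion to the list's length, to 16227 bp, they stood against 96.

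**Figure D1:**
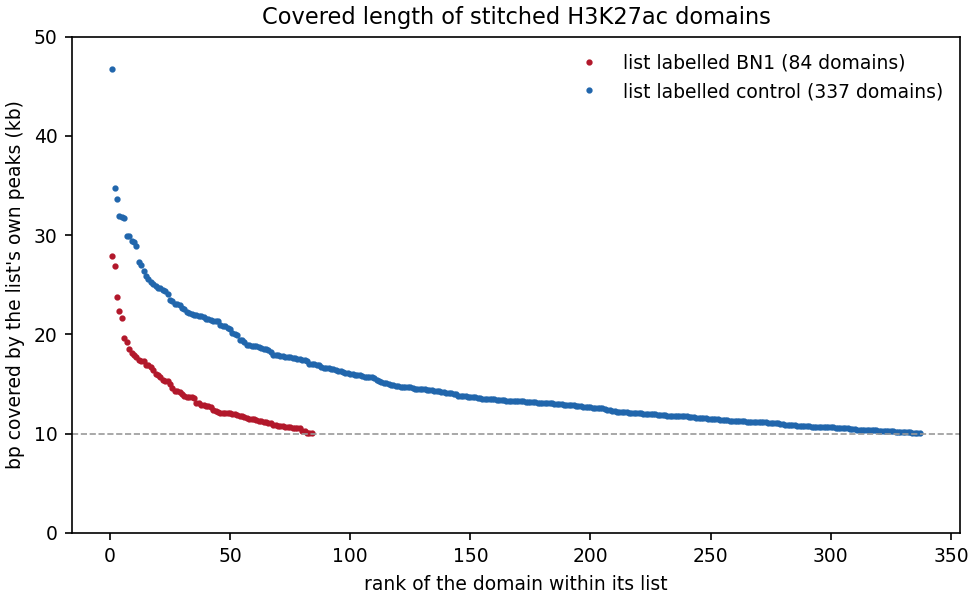
Covered length of each domain in kb (y axis) against its rank within its own list (x axis), with 84 domains of the BN1-labelled list and 337 of the control-labelled list. The dashed line is the 10 kb minimum. The longest reached 27890 bp in the BN1-labelled list and 46748 bp in the control-labelled list.

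The build of single domains is described next. Both lists were cut at the same 10000 bp minimum and 12000 bp stitching distance. The rule thus limits lengths, spans and numbers of peaks, and no likeness of the lists is read from them. The covered length had a median of 12534 bp (quartiles 11238.5 and 15454.2) in the BN1-labelled list and 13284 bp (quartiles 11434 and 16970) in the control-labelled list. The span including gaps had a median of 35611 bp in the BN1-labelled list and 32903 bp in the control-labelled list. A domain had a median of 9 peaks in each list, between 2 and 23 in the BN1-labelled list and between 1 and 25 in the control-labelled list. Its widest peak supplied a median of 33.8% of the covered length in the BN1-labelled list and 33.7% in the control-labelled list, so a typical domain was several peaks and not 1 broad one. The 5 most finely divided domains held 1.05 to 1.21 peaks per covered kb in the BN1-labelled list and 1.21 to 1.5 in the control-labelled list, and the 5 least divided 0.20 to 0.288 and 0.0857 to 0.178 in the same order of lists.

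The 10000 bp minimum cut through a continuous range of lengths. Just inside it in the BN1-labelled list were the regions of Junb (10017 bp), an AP-1 transcription factor, Ncf1 (10019 bp), a subunit of the phagocyte NADPH oxidase, and Slco4a1 (10043 bp). Just outside it were Rab7 (9993 bp), Fosl2 (9970 bp) and Plbd1 (9917 bp). In the control-labelled list Cyfip1 (10025 bp), Snx10 (10078 bp) and a region nearest Tpcn2 (10084 bp) lay inside, and a region nearest Atf3 (9971 bp), Snx8 (9955 bp) and Gnptab (9953 bp) lay outside.

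The bp that the other list covered within each domain did not enter the choice of domains. Of a domain's own covered bp, the other list also covered a median of 53.8% (quartiles 28.9 and 78.3) in domains labelled BN1 and 26.5% (quartiles 9.97 and 45.7) in domains labelled control. Over all stitched regions the same median was 83.8% in the BN1-labelled list and 34.0% in the control-labelled list, and over stitched regions of 5 to 10 kb it was 61.3% (461 regions) and 31.9% (944 regions). By median, domains of either list therefore lay below all stitched regions in this measure, and nearer the next smaller regions. The lower quartile ran the other way. Over all stitched regions it was 12.5% in the BN1-labelled list and 0% in the control-labelled list, against 28.9% and 9.97% in domains. Counted by bp, the other list covered 50.7% of domain peaks and 65.1% of other peaks in the BN1-labelled list, and 30.1% and 41.4% in the control-labelled list.

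Few domains were without any peak of the other list. This held for 4 of 84 in the BN1-labelled list (4.76%, 1.31 to 11.7) and 35 of 337 in the control-labelled list (10.4%, 7.34 to 14.1), against 24% and 39.8% of stitched regions of any size. These shares were not matched for region size. The other list covered less than 25% of the domain's own length in 18 domains labelled BN1 (21.4%) and 143 labelled control (42.4%), against 26% and 45.5% of all stitched regions, close to the background in both lists. It covered more than the domain's own list in 24 domains labelled BN1 (28.6%, 19.2 to 39.5) and 8 labelled control (2.37%, 1.03 to 4.62), against 11.4% and 3.48% of all stitched regions.

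A domain of one list often met no domain of the other. Of the domains labelled BN1, 38 overlapped a domain labelled control by at least 1 bp (45.2%, 34.3 to 56.5). Of those labelled control, 39 overlapped one labelled BN1 (11.6%, 8.36 to 15.5). With the control minimum scaled to the list's length these shares were 21.4% and 18.8%. Merging overlapping domains gave 382 loci, of which 38 held a domain in both lists, 46 in the BN1-labelled list only and 298 in the control-labelled list only.

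At loci with a domain in one list only, the other list usually fell short of the minimum rather than being empty. At the 46 loci of the BN1-labelled list only, that list covered a median of 12710 bp and the control-labelled list 5120.5 bp (0 to 14354). At the 298 loci of the control-labelled list only, the BN1-labelled list covered a median of 3911 bp (0 to 17028) and the control-labelled list 13156.5 bp. The other list covered 10 kb or more at 3 loci of the first kind (Tbc1d10c, Hnrnpf and Rhog) and at 10 of the second, Per1 with 17028 bp labelled BN1 among them, without its peaks there forming a single stitched region that reached the minimum.

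**Figure D2:**
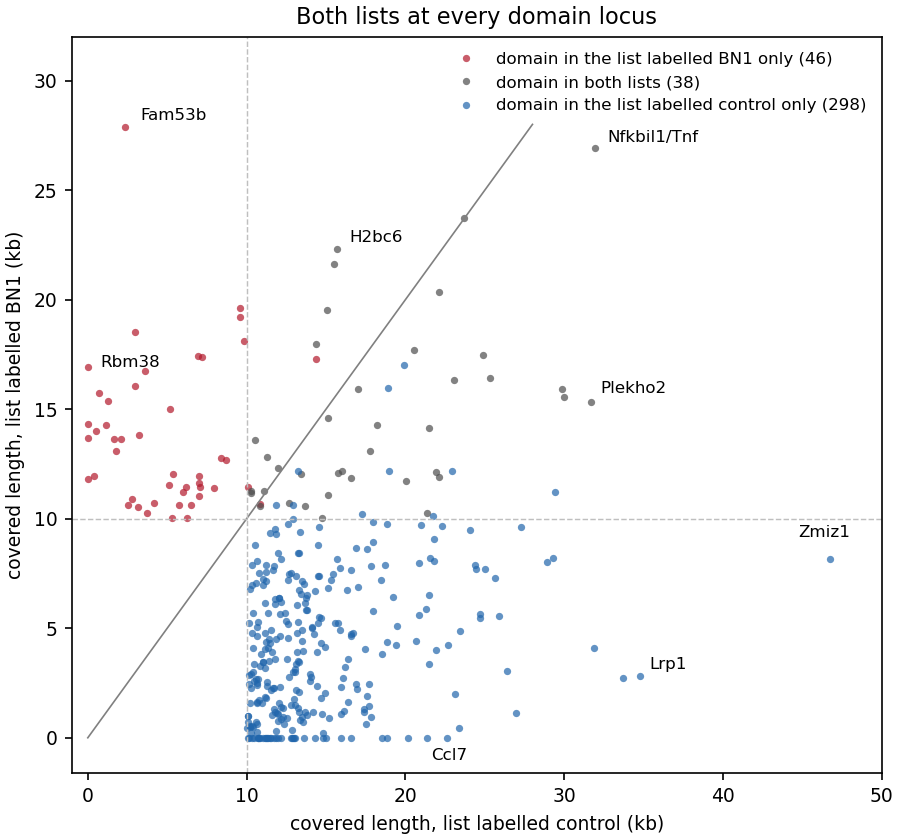
Covered length in kb at each of 382 domain loci in the BN1-labelled list (y axis) and in the control-labelled list (x axis). Points are loci with a domain in the BN1-labelled list only (46), in both lists (38) or in the control-labelled list only (298); the solid line marks equal length and the dashed lines the 10 kb minimum. Most points lie below the solid line, and a row of 35 lies at 0 on the y axis.

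In bp, 56 of the 382 loci were longer in the BN1-labelled list and 326 in the control-labelled list. This follows largely from the rule, since 45 of the 46 loci with a domain in the BN1-labelled list only and all 298 of the control-labelled list only were longer in the list that held the domain. Expressed per Mb of each list's whole covered length, 108 were longer in the BN1-labelled list and 274 (71.7%) in the control-labelled list. At the 38 shared loci this scaling turned the balance. There 11 loci were longer in the BN1-labelled list and 27 in the control-labelled list by bp, but 31 and 7 per Mb. The shared loci had a median of 13359.5 bp in the BN1-labelled list and 16275.5 bp in the control-labelled list, and the ratio of control over BN1 ran from 0.702 to 2.08 with a median of 1.23. Both lists had to reach 10000 bp at these loci, which limits that ratio, so nothing is read from it or from the turn.

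The shared loci were ranked by the covered length of the lesser list. Lengths at these loci are in bp and not scaled to list length. Per Mb, 31 of the 38 shared loci were longer in the BN1-labelled list. The rule limits the ratios, so no direction is read from those given here or below. The first was the Nfkbil1/Tnf region of the major histocompatibility complex, with 26906 bp in the BN1-labelled list and 31939 bp in the control-labelled list. Its peaks touched Tnf, the gene of a central inflammatory cytokine, and Lst1 and Aif1, both expressed in myeloid cells. A region between genes on chromosome 8 followed, 77437 bp from Tomm20 in the BN1-labelled list, with 23731 bp in that list and 23682 bp in the control-labelled list. In bp the second locus was thus of nearly equal length in both lists, while the first was 1.19 times as long in the control-labelled list.

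Genes of signalling and of the cytoskeleton came next. Myh9, which encodes non-muscle myosin, had 20334 bp in the BN1-labelled list and 22129 bp in the control-labelled list. Inpp5d, which encodes the SHIP1 phosphatase of blood cells, had 17703 and 20521 bp in the same order. The Zswim4 locus of the microRNA cluster had 17459 bp in the BN1-labelled list and 24894 bp in the control-labelled list. In bp all 3 were longer in the control-labelled list, by 1.09 to 1.43 times. Per Mb of list length, Myh9 had 1063 bp in the BN1-labelled list and 713 bp in the control-labelled list, and Inpp5d 926 and 661 bp. A region nearest Cebpb, the gene of a C/EBP factor of myeloid cells, had 16418 bp in the BN1-labelled list and 25327 bp in the control-labelled list. Cd300lb, a myeloid surface receptor gene, had 16315 bp in the BN1-labelled list and 23082 bp in the control-labelled list. Irak2, a kinase gene of Toll-like receptor signalling, had 15939 bp in the BN1-labelled list and 29875 bp in the control-labelled list. At these last 3 loci the control-labelled list was longer in bp, by 1.41 to 1.87 times.

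The remaining 2 of the first 10 differed in direction in bp. Med29/Zfp36 had 15936 bp in the BN1-labelled list and 17039 bp in the control-labelled list; Zfp36 encodes tristetraprolin, which destabilises cytokine messengers. A cluster of histone genes led by H2bc6 had 22325 bp in the BN1-labelled list and 15675 bp in the control-labelled list, and the BN1 domain there touched 15 named genes. In that cluster 13 of the 14 BN1 peaks lay at a listed gene start.

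**Figure D3:**
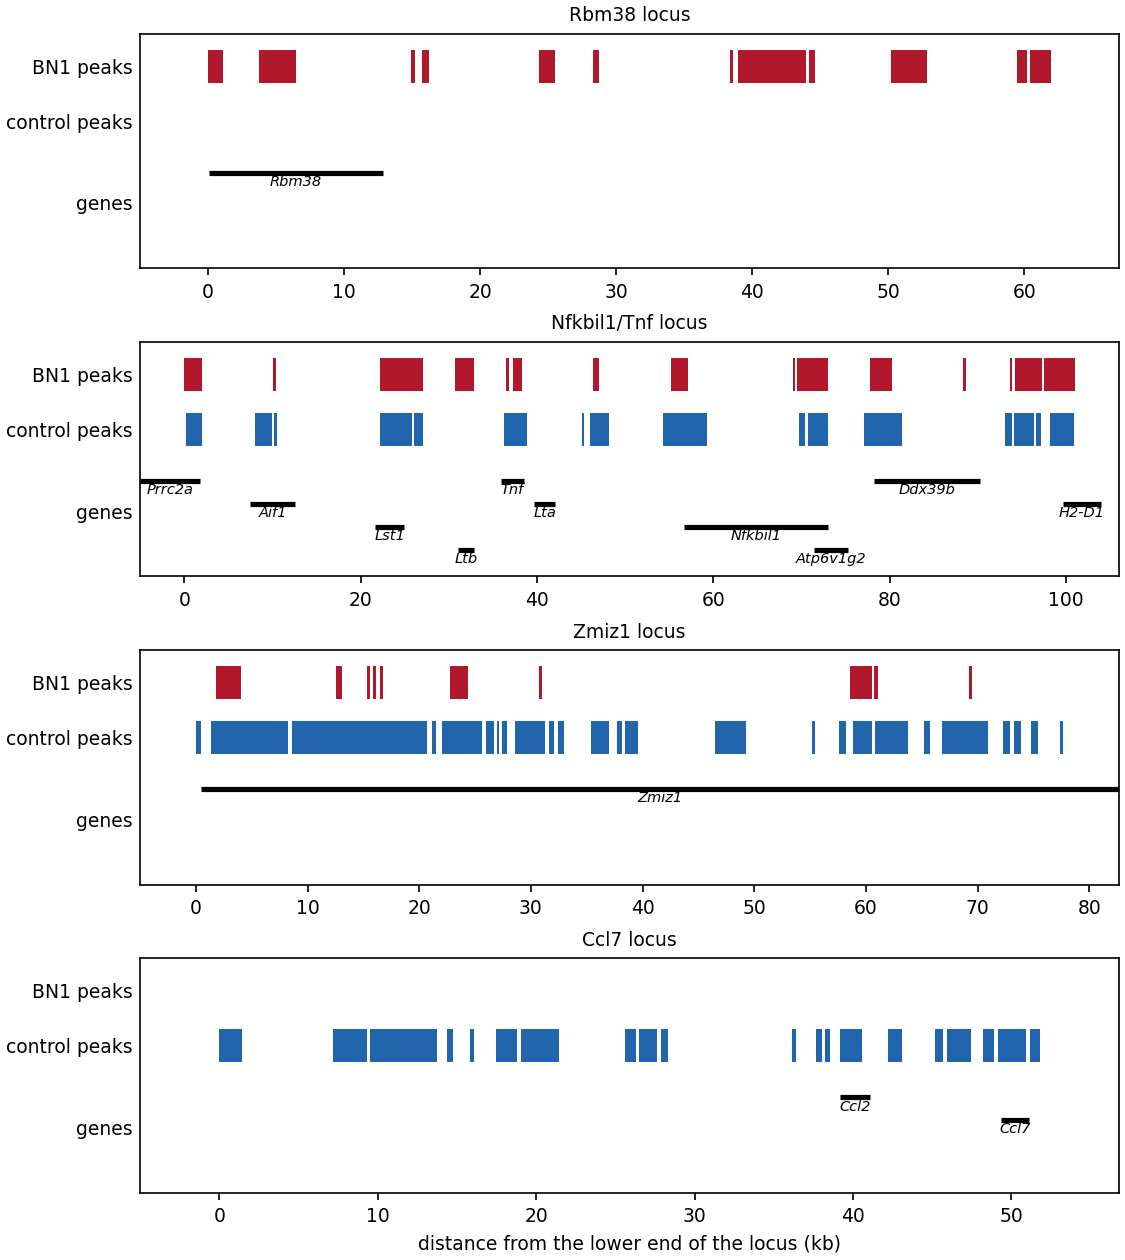
Peaks of the BN1-labelled list (upper row, red) and the control-labelled list (lower row, blue) with protein-coding genes at 4 loci, against the distance in kb from the lower end of each locus. At Rbm38 the row labelled control is empty, at Nfkbil1/Tnf both rows are filled, at Zmiz1 the lower row has 25 peaks and the upper row 10, and at Ccl7 the row labelled BN1 is empty.

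The longest domains labelled BN1 without a partner lay at genes of several kinds. The first, inside Fam53b and the neighbouring phosphatase gene Lhpp (chr7:132685741-132739389), had 23 peaks and 27890 bp, where the control-labelled list covered 2319 bp. None of those 23 peaks lay within 1000 bp of a listed gene start. A region 15429 bp from Ly6m had 19600 bp in the BN1-labelled list and 9569 bp in the control-labelled list. Litaf, which encodes an endosomal protein induced by lipopolysaccharide, had 19202 bp in the BN1-labelled list and 9612 bp in the control-labelled list. These last 2 differed from the minimum by little in the control-labelled list, in contrast to Fam53b.

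Gsr, the glutathione reductase gene, had 18534 bp in the BN1-labelled list and 2949 bp in the control-labelled list. Ubxn11/Cd52, which includes the gene of a leukocyte surface glycoprotein, had 17436 bp in the BN1-labelled list and 6939 bp in the control-labelled list. Irgc1/Plaur, which includes the urokinase receptor gene, had 17364 bp in the BN1-labelled list and 7175 bp in the control-labelled list. The Slc12a3/Herpud1 domain had 16749 bp in the BN1-labelled list and 3575 bp in the control-labelled list. Tbc1d10c, at which the BN1-labelled list had 17287 bp, is the exception among the first 10, since the control-labelled list covered 14354 bp there.

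The 4 domains labelled BN1 with no peak labelled control were those of Rbm38, Hvcn1, Erg and Hdc. Rbm38, an RNA-binding protein gene, had 12 peaks and 16934 bp (chr2:173021860-173083800), 8 of them outside genes, with authors' fold enrichments of 2.92 to 14.5. Hvcn1, the proton channel gene of phagocytes and B cells, had 14325 bp in 15 peaks. Erg, an ETS transcription factor gene of blood stem cells, had 13678 bp in 13 peaks (chr16:95426941-95460976), of which 11 lay inside the gene away from a listed start. Hdc, which encodes the enzyme that makes histamine, had 11798 bp in 6 peaks (chr2:126596507-126619827). Fold enrichment here and below is the authors' value at a peak's summit and ranks peaks within 1 list only.

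Other domains labelled BN1 with few bp of the control-labelled list included neutrophil and B lineage genes. Cxcr4 (chr1:128586184-128616915), whose promoter is printed above, had 15725 bp in the BN1-labelled list and 715 bp in the control-labelled list, and 8 of its 9 peaks lay outside genes. S100a9/S100a8, which encode the calprotectin subunits of neutrophils, had 13985 bp in the BN1-labelled list and 508 bp in the control-labelled list. Pold1/Spib, which includes the printed Spib promoter, had 13817 bp in the BN1-labelled list and 3201 bp in the control-labelled list. The control peaks within these 3 domains were thus short beside those labelled BN1. Selplg, the gene of the selectin ligand PSGL-1, had 13098 bp in the BN1-labelled list and 1759 bp in the control-labelled list. Sema4b, a semaphorin gene, had 11927 bp in the BN1-labelled list and 406 bp in the control-labelled list. Bach2, a transcription factor gene of lymphocytes, had 10883 bp in the BN1-labelled list and 2780 bp in the control-labelled list within the domain.

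The longest domains labelled control without a partner at the same locus follow. Zmiz1, which encodes a PIAS-like transcriptional coregulator, had the longest of all, with 25 peaks over chr14:25457468-25535118. All of them overlapped the gene, 24 of them away from a listed start. The BN1-labelled list covered 8174 bp there in 10 peaks, against 46748 bp in the control-labelled list. Lrp1/Stat6 joined the gene of an endocytic receptor and that of an interleukin-4 signalling factor (chr10:127583886-127644784), with 2827 bp in the BN1-labelled list and 34753 bp in the control-labelled list. Mgat5, an enzyme gene of N-glycan branching, had 2740 bp in the BN1-labelled list and 33687 bp in the control-labelled list. Metrnl, a secreted factor gene, had 4105 bp in the BN1-labelled list and 31851 bp in the control-labelled list. In each of these 4 the BN1-labelled list held peaks, but over a small part of the length.

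Further down, Cerk, the ceramide kinase gene, had 11204 bp in the BN1-labelled list and 29393 bp in the control-labelled list. Ell, an elongation factor gene known as an MLL fusion partner, had 8194 bp in the BN1-labelled list and 29304 bp in the control-labelled list. Plec, which encodes the cytoskeletal linker plectin, had 8010 bp in the BN1-labelled list and 28937 bp in the control-labelled list, including the widest peak of any domain, 14289 bp. Lcp1, which encodes the actin-bundling protein L-plastin, had 9639 bp in the BN1-labelled list and 27295 bp in the control-labelled list. Niban2 had 1147 bp in the BN1-labelled list and 26948 bp in the control-labelled list, and a region 31054 bp from Ppara had 3067 bp in the BN1-labelled list and 26412 bp in the control-labelled list.

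Shared domains among the 12 longest labelled control were those of Nfkbil1/Tnf, Plekho2, Mcl1 and Irak2. At the Plekho2 locus the BN1-labelled list covered 15322 bp and the control-labelled list 31695 bp. At Mcl1 the BN1-labelled list covered 15545 bp and the control-labelled list 29966 bp, and the domain labelled BN1 held 5 peaks, against 16 in the domain labelled control. Among the 12 longest labelled BN1 the shared ones included Ccr1, a chemokine receptor gene, with 21643 bp in the BN1-labelled list and 15493 bp in the control-labelled list. Syk, a kinase gene downstream of B cell and Fc receptors, was another, with 17958 bp in the BN1-labelled list and 14386 bp in the control-labelled list, and it held the highest fold enrichment of any domain peak labelled BN1, 82.2.

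The 35 loci labelled control with no peak labelled BN1 were led by a pair of chemokine genes. Ccl7/Ccl2, which encode monocyte attractants, had 20 peaks and 22588 bp (chr11:81996394-82048163), 18 of the peaks outside both gene bodies. Chchd6 followed with 21352 bp, Cttnbp2nl with 20149 bp, a region near Lpp with 18810 bp and Zranb3 with 18501 bp. Mitf, a transcription factor gene of melanocytes, osteoclasts and mast cells, had 15006 bp, and P2ry6, a nucleotide receptor gene, had 13603 bp. Nrp2, a semaphorin and growth factor co-receptor gene, was nearly free of the BN1-labelled list, with 456 bp in the BN1-labelled list and 23383 bp in the control-labelled list. The other extreme was 3 domains labelled control made of a single broad peak, at Ndufs8/Tcirg1 (11663 bp), Rhbdf2 (10873 bp) and Atp6v0c (10758 bp); no domain labelled BN1 was of this kind.

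Domain peaks lay away from gene starts more often than other peaks of the same list. The RefSeq promoter table lists a start for 17492 of the 21887 genes (79.9%), so a peak at an unlisted start counts here as inside or outside a gene. Within 1000 bp of a listed start lay 17.0% (14.4 to 19.8) of domain peaks labelled BN1 and 15.5% (14.2 to 16.8) of those labelled control, against 39.9% and 31.1% of peaks outside domains. Domain peaks labelled BN1 lay inside genes in 41.0% of cases and outside genes in 42%, while those labelled control lay inside genes in 56.8% and outside genes in 27.7%. Taking either end of any gene in place of the listed starts, 21.8% (19.0 to 24.9) of domain peaks labelled BN1 and 21.7% (20.2 to 23.2) of those labelled control lay within 1000 bp, against 45.7% and 36.1% of peaks outside domains. Stitching favours crowded peaks, so the rule itself bears on these positions, and no test was made. Pooled over all domains, start peaks had a median fold enrichment of 12.3 in the BN1-labelled list and 12.8 in the control-labelled list. Domain peaks inside genes had 5.40 and 5.49. The gap is not particular to domains. Outside them the medians were 11.5 and 10.7 at starts and 5.44 and 5.56 inside genes, in the same order of lists.

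Start peaks had the highest rate of overlap with the other list, although most overlapped peaks lay elsewhere. Of the 409 domain peaks labelled BN1 that overlapped a peak labelled control, 111 lay at a listed start, 147 inside genes and 151 outside genes. Of the 1082 labelled control that overlapped one labelled BN1, 377, 430 and 275 did, in the same order of positions. The other list overlapped 83.5% (76.0 to 89.3) of the start peaks in domains labelled BN1 and 78.5% (74.6 to 82.1) of those in domains labelled control. Of domain peaks inside genes it overlapped 45.8% (40.2 to 51.4) in the BN1-labelled list and 24.4% (22.4 to 26.4) in the control-labelled list, and of those outside genes 45.9% and 32%. Outside domains starts were again the most shared class, with 90.0% in the BN1-labelled list and 81.2% in the control-labelled list. Peaks inside genes were shared there in 50.2% and 25.4% of cases, near the shares within domains. For peaks outside genes the shares outside domains were 37.6% (36.2 to 39.0) in the BN1-labelled list and 22.3% (21.2 to 23.3) in the control-labelled list, below those within domains in both. These shares were not matched for peak width. Peaks outside genes had median widths of 734 and 825 bp in domains, against 511 and 558 bp outside them, in the same order of lists.

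**Figure D4:**
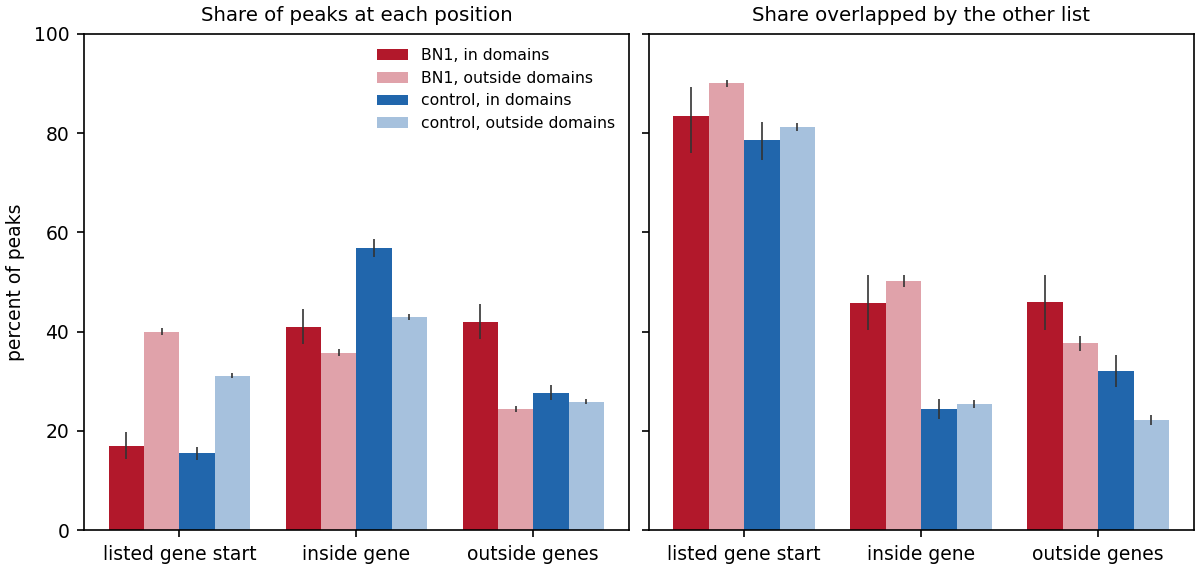
Percent of peaks at a listed gene start, inside a gene and outside genes (left), and percent of those peaks overlapped by the other list (right), for peaks inside domains (dark) and outside them (pale). Bars are labelled BN1 (red) and control (blue), and whiskers are exact 95% binomial intervals for counting error. Domain peaks sit at listed starts less often, 17.0% against 39.9% in the BN1-labelled list, and starts are the most shared class in every set.

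A gene was counted as reached where a peak of a domain overlapped its body. Of 21887 protein-coding genes, domains labelled BN1 reached 176 (0.804%) and domains labelled control 611 (2.79%). Both reached 88 genes (0.402%), the BN1-labelled list alone reached 88 (0.402%) and the control-labelled list alone 523 (2.39%). Among genes with any peak of the same list in the body, 1.76% of 9983 were reached in the BN1-labelled list and 5.61% of 10894 in the control-labelled list. Genes reached in both were short, with a median length of 6.59 kb, against 10.8 kb for those reached in the BN1-labelled list alone, 17.6 kb for those in the control-labelled list alone and 24.7 kb for all genes with a peak in either list. Each gene counts singly, so gene-dense shared loci such as the H2bc6 histone cluster weigh more in that median than loci with few genes.

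Most genes reached in one list only were not free of the other list. Of the 88 genes reached in the BN1-labelled list alone, 67 held a peak labelled control (76.1%, 65.9 to 84.6), against 91.3% of all genes with a peak labelled BN1. Of the 523 reached in the control-labelled list alone, 442 held a peak labelled BN1 (84.5%, 81.1 to 87.5), against 83.6% of all genes with a peak labelled control. The 21 genes left on the BN1 side include Erg, Hdc, S100a9 and Retn, the resistin gene. The 81 on the control side include Ccl2, Ccl7, Mitf, Cd14, Ctss and C3ar1, the complement C3a receptor gene. A domain reached no named protein-coding gene in 14 cases labelled BN1 (16.7%) and 30 labelled control (8.90%). A peak at a listed gene start was held by 58 (69.0%) and 229 (68.0%) domains in the same order of lists.

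The domains were then read against 16 gene lists, with 0.804% of all genes reached in the BN1-labelled list and 2.79% in the control-labelled list as the background. Among genes with a peak of the same list in the body it was higher, 1.76% and 5.61%. An excess over all genes thus holds in part for genes with any peak. With the control minimum scaled to list length the background over all genes was 0.804% and 0.905%, so each count was also read under the scaled minimum. Of 35 B lineage genes, domains labelled BN1 reached 4 (11.4%) and domains labelled control 1 (2.86%). Bach2, Spib and Cxcr4 were reached in the BN1-labelled list only, and Syk in both. Over the whole body, Bach2 had 6476 bp labelled BN1 and 9332 bp labelled control, so its call belongs to 1 stretch of a long gene. With the scaled minimum the B lineage counts were 4 in the BN1-labelled list and 0 in the control-labelled list, but they were 0 and 0 with a 5000 bp stitching distance and 1 and 1 without peaks near gene ends. Of 26 neutrophil and granule genes, 3 were reached in the BN1-labelled list (11.5%) and 1 in the control-labelled list (3.85%). These were S100a8 and S100a9 in the BN1-labelled list only and Itgb2, the β2 integrin gene, in both. S100a8 and S100a9 lie in 1 domain, so they are not separate hits. The Itgb2 locus had 12115 bp in the BN1-labelled list and 21929 bp in the control-labelled list. The scaled minimum left these counts at 3 and 1, but they turned to 0 and 1 under each of a 5000 bp stitching distance, a 15000 bp minimum, a −log10 q of at least 10 and removal of peaks near gene ends.

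The monocyte and macrophage list ran the other way in count. Of 34 genes, domains labelled BN1 reached 2 (5.88%) and domains labelled control 9 (26.5%). Plaur was reached in the BN1-labelled list only and Tyrobp, an adaptor gene of activating receptors, in both. The body of Plaur itself had less of the BN1-labelled list (3458 bp) than of the control-labelled list (5485 bp). The other 8 were reached in the control-labelled list only and were Cd14, the lipopolysaccharide co-receptor gene, Ctss, Ctsb and Ctsd, which encode cathepsins, Cd68, Mitf, Lgals3, which encodes galectin-3, and Clec4d, a C-type lectin gene. The gene body of Ctsb had 933 bp in the BN1-labelled list and 13229 bp in the control-labelled list. That of Lgals3 had 1784 bp in the BN1-labelled list and 6514 bp in the control-labelled list, and that of Cd14 had 0 bp in the BN1-labelled list and 1752 bp, its whole length, in the control-labelled list. Cd68 itself had 1119 bp labelled BN1 and 1923 bp labelled control in a gene-dense domain with 8 named genes, so its call is not its own alone. With the scaled minimum the counts of the list were 2 in the BN1-labelled list and 4 in the control-labelled list.

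Genes of lysosomes, adhesion and the cytoskeleton were reached mainly in the control-labelled list. Of 20 genes of endocytosis, lysosome and lipid handling, domains labelled BN1 reached 0 and domains labelled control 7 (35.0%), namely Lrp1, Psap, Tcirg1, Vps13d, Plin2, Cd9 and Sqstm1. Within the Lrp1 body the BN1-labelled list covered 335 bp and the control-labelled list 27152 bp, while within Psap, the precursor of saposins, they covered 6469 and 9089 bp in that order. Of 22 genes of adhesion, cytoskeleton and migration, 2 were reached in the BN1-labelled list (9.09%) and 7 in the control-labelled list (31.8%). Selplg was reached in the BN1-labelled list only and Actb in both, and Itga5, Cd9, Vav1, Nav1, Lsp1 and Rac2 in the control-labelled list only. Rac2, a GTPase gene of phagocytes, had more of the BN1-labelled list in its body (2952 bp) than of the control-labelled list (1565 bp), although its domain belongs to the control-labelled list. The scaled minimum gave 0 and 2 reached genes in the lysosome list, but turned the adhesion list to 2 in the BN1-labelled list and 1 in the control-labelled list.

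Among 43 blood transcription factor genes, domains labelled BN1 reached 4 (9.30%) and domains labelled control 10 (23.3%). Spi1, which encodes PU.1, Fli1 and Irf2bp2 were reached in both. The Spi1 locus had 12797 bp in the BN1-labelled list and 11283 bp in the control-labelled list, the Fli1 locus 11280 and 11087 bp, and the Irf2bp2 locus 14601 and 15142 bp, in the same order of lists. In bp these 3 loci were close to equal in both lists. Both lists had to reach 10000 bp there, and the control-labelled list is 1.62 times as long as the other. Mef2d was reached in the BN1-labelled list only, with 7722 bp in its body against 3110 bp in the control-labelled list, and Cebpb, Zeb2, Klf6, Klf13, Nfatc1, Rara and Zmiz1 in the control-labelled list only. In the body of Cebpb both lists covered the same 1518 bp, its whole length, so that call rests on the stitching of the peaks around it. With the scaled minimum the counts of the list turned, to 4 in the BN1-labelled list and 3 in the control-labelled list.

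Response genes followed a similar count. Of 23 AP-1 and immediate early genes, 3 were reached in the BN1-labelled list (13.0%) and 6 in the control-labelled list (26.1%). Junb and Zfp36 were reached in both, Btg2 in the BN1-labelled list only, and Fosb, Egr3, Ier5 and Dusp1 in the control-labelled list only. Egr3 held 178 bp of the domain that reached it, the smallest contact of these. Of 24 NF-kB and inflammation genes, 1 was reached in the BN1-labelled list (4.17%) and 4 in the control-labelled list (16.7%). Tnf was reached in both, and Nfkbie, Tnfrsf1b, a TNF receptor gene, and Socs3, a feedback inhibitor gene of cytokine signalling, in the control-labelled list only. The body of Nfkbie had more of the BN1-labelled list (3065 bp) than of the control-labelled list (2658 bp). Of 20 growth and cell cycle genes, 1 was reached in the BN1-labelled list (5%) and 5 in the control-labelled list (25%). Mcl1 was reached in both, and Ccnd1, Cdkn1b, Bcl2l1 and Mdm2 in the control-labelled list only. Ccnd1, the cyclin D1 gene, had 0 bp in its body in the BN1-labelled list and 5803 bp in the control-labelled list, whereas Cdkn1b, the gene of the cell cycle inhibitor p27, had 2478 and 2457 bp in that order. With the scaled minimum the AP-1 and immediate early list turned to 3 in the BN1-labelled list and 2 in the control-labelled list, while the NF-kB list had 1 and 3 and the growth list 1 and 2.

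The other lists were reached by few domains. Of 24 genes of fusion partners and acetylation readers, domains labelled BN1 reached 1 (4.17%) and domains labelled control 2 (8.33%). Bicra, which encodes a subunit of the same BAF subcomplex as BRD9, was reached in both, with 10572 bp at its locus in the BN1-labelled list and 10840 bp in the control-labelled list, and Setd1b in the control-labelled list only. Of 26 stem and progenitor genes, Erg was the 1 reached in the BN1-labelled list (3.85%), and 0 were reached in the control-labelled list. Of 24 erythroid and megakaryocyte genes, Fli1 was reached in each list, and of 16 mast cell, basophil and eosinophil genes, Hdc in the BN1-labelled list and Fcer1g in the control-labelled list. Of 16 housekeeping genes, 1 was reached in the BN1-labelled list (6.25%) and 4 in the control-labelled list (25%), a share like that of several blood lists. Actb was reached in both, and Tubb5 and Eif4a1 were among those reached in the control-labelled list only. With the scaled minimum the housekeeping list had 1 gene reached in each list. The list of fusion partners and readers turned to 1 in the BN1-labelled list and 0 in the control-labelled list. It did so too with lists of equal peak number. The stem and progenitor list had 0 reached genes in both lists with a 5000 bp stitching distance, a 15000 bp minimum and a −log10 q of at least 10. The 20 T and NK cell genes and the 18 genes of other tissues were reached by no domain of either list.

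**Figure D5:**
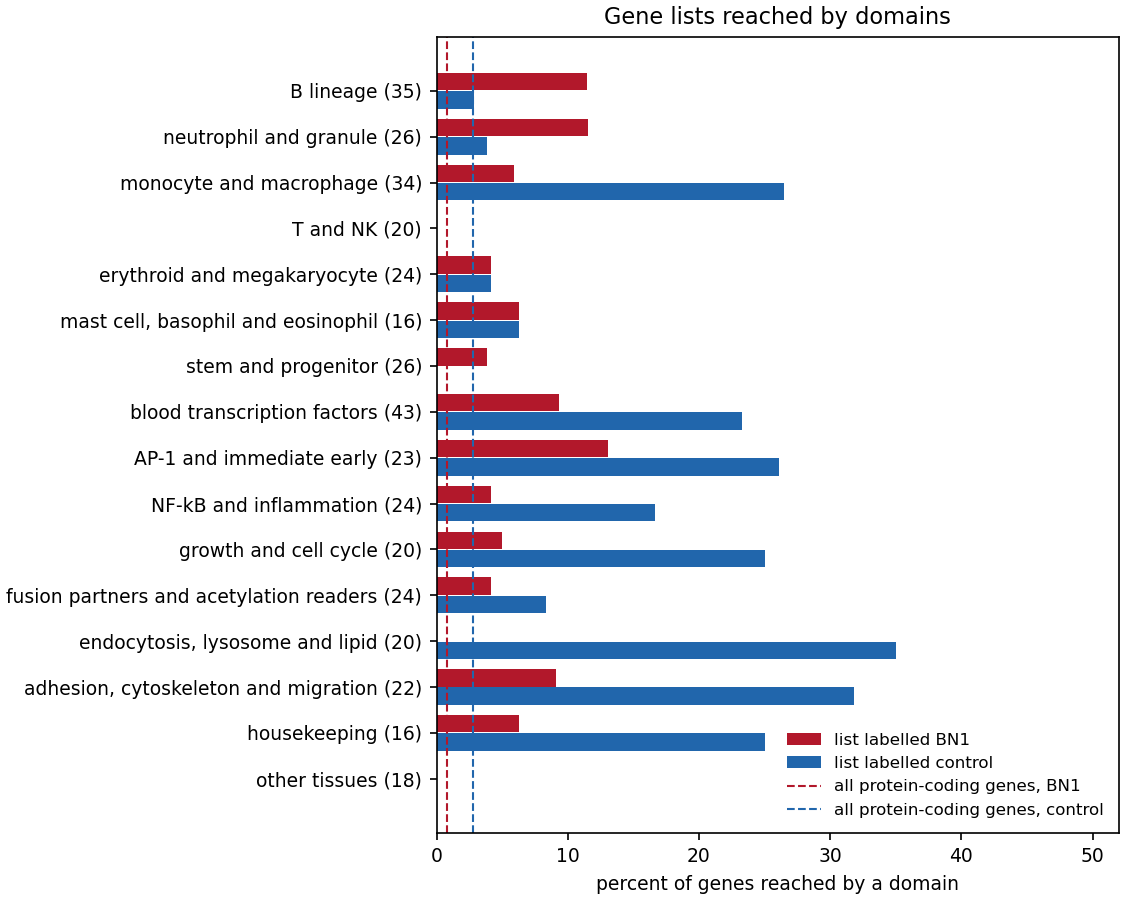
Percent of the genes of each of 16 lists reached by a domain of the BN1-labelled list (red, upper bar) and of the control-labelled list (blue, lower bar), with the number of genes in brackets. Dashed lines give the same percent over all protein-coding genes, 0.804% and 2.79%. Among genes with a peak of the same list in the body it was 1.76% and 5.61%, not drawn. The B lineage, neutrophil and stem cell lists have the longer red bar and 9 lists the longer blue bar, of which the adhesion, transcription factor, AP-1 and fusion partner lists turn, and the housekeeping list evens out, with the control minimum scaled to list length.

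Promoters inside domain peaks were compared with all 21263 promoters of the RefSeq table, each 250 bases before to 50 after the start. Domain peaks held 138 promoters of 111 genes in the BN1-labelled list and 523 promoters of 414 genes in the control-labelled list. The C/EBP letters TTGCNNAA, searched like all motifs on both strands, occurred in 18.1% (12.1 to 25.6) of the domain promoters labelled BN1 and 11.1% (8.53 to 14.1) of those labelled control. They occurred in 7.23% of promoters in other peaks labelled BN1, 7.56% of those in other peaks labelled control and 10.2% of all promoters. TATAAA occurred in 14.5% of domain promoters labelled BN1 and 8.80% of those labelled control, against 5.17% and 5.65% of promoters in other peaks of the same lists and 12.6% of all promoters. The GC box GGGCGG occurred in 60.1% of domain promoters labelled BN1 and 63.5% of those labelled control, below the 69.4% and 68.6% of promoters in other peaks and above the 46.2% of all promoters. Promoters of 1 gene, and the near-identical histone genes, share sequence, so these intervals are too narrow. The histone clusters at H2bc6 and H1f1 lie in domains labelled BN1 and can weigh on the shares themselves, above all among 111 genes. The shares were not computed again without histone genes, so they are not read as a general trait of domain promoters.

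The remaining motifs were read the same way. The PU.1 letters GAGGAAGT occurred in 2.90% of domain promoters labelled BN1 and 4.78% of those labelled control, against 3.42% and 3.31% in other peaks and 3.13% of all. The RUNX letters TGTGGTTT occurred in 1.45% of domain promoters labelled BN1 and 1.91% of those labelled control, against 1.02% and 0.992% in other peaks and 1.61% of all. The AP-1 letters TGANTCA occurred in 5.07% of domain promoters labelled BN1 and 5.54% of those labelled control, against 3.77% and 4.36% in other peaks and 6.99% of all. The E-box CANNTG occurred in 65.9% of domain promoters labelled BN1 and 67.1% of those labelled control, against 59.8% and 59.9% in other peaks and 69.0% of all. E-box matches can overlap other motifs.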

How the data were processed

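H3K27ac fanChIP-seq peak lists, 1 for each ChIP library, were analysed, with groups taken from the sample titles. Per the submitters' processing notes, which give neither role nor order, the tools included MACS3 3.0.1, deepTools 3.5.1, Picard 3.2.0 and Bowtie2 2.5.4, with the build GRCm38 (mm10). As to peak threshold, use of input and pooling, each is not given in the sources used here. The deposited lists give each peak a fold enrichment as a linear ratio, its p-value and q-value as −log10, and a score, all computed by the authors. The score was not used. The deposited −log10 q began at 1.30 in the BN1-labelled list and at 1.32 in the control-labelled list. Read depth is unknown and limits which weak regions could be called.

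Peaks were stitched and measured with scipy 1.17.1, pandas 2.3.3 and numpy 2.4.6 under Python 3.11.15, on code tested on simulated data, and plotted with matplotlib 3.10.9. Genes, gene starts, promoters and microRNAs came from RefSeq GRCm38.p6. A start peak lay within 1000 bp of a start in the promoter table, which lists 17492 of 21887 genes, and a peak neither there nor in a gene body was counted as outside genes; either end of any gene was tried in its place after the data were seen. No test was made, since each group had 1 library. Domain names are those of the protein-coding genes their peaks overlap most, or else of the nearest gene, and predicted genes were left out of names.

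The members, gene lists and markers were chosen with earlier results of these data known. Named domains were the 12 longest of each list, the 10 longest of each list that met no domain of the other, the 10 shared loci longest in their lesser list, those at the minimum, and those that reach a gene of the 16 lists. Other names, and the printed promoters and microRNAs, were picked with their values in view. Alternatives were a stitching distance of 5000 bp, a minimum of 15000 bp, peaks with −log10 q of at least 10, and lists of equal peak number. Further ones were a minimum scaled to list length, removal of peaks within 1000 bp of a gene end, a stricter overlap, and genes within 10 kb of a domain span. The gene lists were counted again, after the data were seen, under all of these but the overlap and the 10 kb settings. 1 reached gene of the lists is not reported here by name.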

Additional observations from a re-analysis of the deposited data

How the results depend on the processing

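Of 59 alternative values, 28 stayed in range, meaning within 1.5 times of a main count or inside the 95% interval of a main share or median, and 31 moved. In the numbers that follow, genes are given as reached in both lists, in the BN1-labelled list only and in the control-labelled list only. Stitching within 5000 bp left 35 domains labelled BN1 and 171 labelled control, a median shared part of 22.5% in domains labelled control, and 21, 30 and 195 genes. A minimum of 15000 bp left 24 and 116 domains, 7.76% of those labelled control meeting one labelled BN1, and 30, 37 and 219 genes. Peaks with −log10 q of at least 10 (11054 labelled BN1 and 14880 labelled control) gave 45 and 204 domains, a median shared part of 21.1% in domains labelled control, and 49, 48 and 297 genes. The minimum scaled to list length gave 96 domains labelled control, overlaps of 21.4% of domains labelled BN1 and 18.8% of those labelled control, and 35, 141 and 163 genes. Without peaks near gene ends there were 37 and 160 domains, median shared parts of 39.9% in domains labelled BN1 and 15.8% in those labelled control, and 8, 18 and 129 genes. The domains labelled control outnumbered those labelled BN1 under every alternative listed here. With lists of equal peak number, 19148 each, every value stayed in that range. Covered bp were not made equal by that setting. It gave 243 domains labelled control, 34.5% of domains labelled BN1 meeting one of them, and 76, 100 and 360 genes. The scaled minimum brought the numbers closest. For the moves under a stricter minimum, a stricter −log10 q, a shorter stitching distance and without gene ends, fewer peaks or fewer domains enter by construction.

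No paired analysis was possible because the groups share 1 replicate number only, and no library was left out, as each group had 1. The spread between animals and the depth behind either list are unknown.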

Other observations

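The number of domains varied between chromosomes in both lists, as did the number of peaks. Chromosome 7 held most, with 11 of 84 domains labelled BN1 (1337 peaks of that list) and 38 of 337 labelled control (1965 peaks). Chromosome 11 held 4 domains labelled BN1 and 35 labelled control, from 1520 and 2245 peaks. Chromosomes 12, 14, 18 and X held no domain labelled BN1, with 766, 665, 494 and 382 of the 19148 peaks of that list. They held 9, 14, 7 and 1 labelled control in that order, with 1079, 1034, 787 and 522 of 28343 peaks. No domain of either list lay on Y or on an unplaced scaffold. Counts per chromosome are small and were not tested, so nothing is read from the zeros.

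Several domains lay far from any named protein-coding gene. The domain labelled BN1 nearest Eea1 lay 105045 bp from it and covered 12762 bp, with 8370 bp in the control-labelled list. The domain labelled BN1 nearest Thbs1 lay 97843 bp from it and covered 14262 bp, with 1134 bp in the control-labelled list. In the control-labelled list a domain lay 195563 bp from its nearest named protein-coding gene, Spdye4c. That domain had 528 bp in the BN1-labelled list and 10319 bp in the control-labelled list. Another, 117729 bp from Klf14, had 4872 bp in the BN1-labelled list and 23448 bp in the control-labelled list. A domain labelled BN1 of 15364 bp near Asprv1 was nearly 1 peak of 12983 bp, the widest of that list's domains, and the control-labelled list covered 1290 bp there.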
